A study of Mus musculus with 6 samples.

Results

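The 10 genes described here mark or regulate the epithelial and mesenchymal states of a carcinoma cell: the epithelial genes Cdh1, Epcam and Esrp1, the mesenchymal genes Cdh2 and Vim, and the transcription factor genes Snai1, Snai2, Twist1, Zeb1 and Zeb2. They were taken by name from the 19938 genes of a whole-transcript mouse array, and all 10 were measured, each by 1 transcript cluster paired with that gene alone. The samples were tumors of Renca, a renal carcinoma line of BALB/c origin. Intrakidney tumors grew after injection into the outer cortex of the kidney and subcutaneous tumors after injection under the skin, with 3 tumors of each kind from 6 BALB/c hosts, all excised on day 12 and frozen. The labels name no engineered allele, drug or other treatment in either group, and they give no age or sex of the hosts. Whole tumor RNA was measured, so tumor cells, host stroma, host immune cells and adjoining host tissue all contributed to each value.

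An epithelial cell is held to its neighbours by E-cadherin, the product of Cdh1, and by tight junctions and desmosomes. In the epithelial to mesenchymal transition, repressors of the SNAIL, TWIST and ZEB families bind E-box sequences and silence Cdh1 and other epithelial genes. N-cadherin (Cdh2) and vimentin (Vim) often become more abundant, and the splicing regulator ESRP1 is lost. MicroRNAs of the miR-200 family and ZEB factors repress each other. In the kidney these states are not simple opposites, because proximal tubule cells carry N-cadherin while distal tubule and collecting duct cells carry E-cadherin.

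All levels are on the log2 scale, as the authors deposited them after RMA, a procedure that subtracts background, equalises the arrays and combines a cluster's probes into 1 value. The median of all values lay between 7.08 and 7.11 on the 6 arrays. Correlations across genes, which are not independent replicates, were 0.991 to 0.994 within intrakidney tumors, 0.990 to 0.996 across groups and 0.995 to 0.997 within subcutaneous tumors. The renal lineage genes Cdh16 and Pax8 were bright in both groups. Cdh16, the kidney cadherin, lay between 11.46 and 11.81 in intrakidney and between 11.51 and 11.60 in subcutaneous tumors. The renal transcription factor gene Pax8 lay between 10.08 and 10.18 in intrakidney and between 10.04 and 10.15 in subcutaneous tumors. They were the brightest of 6 measured renal lineage markers, and the dimmest, Lhx1, had 32.2% of all genes below its mean. Intrakidney tumors 2 and 3 stood apart in transcripts of kidney tubule. Averaged over 21 proximal tubule markers, the log2 level came to 6.25, 6.72 and 7.34 in intrakidney tumors 1, 2 and 3, against 6.23, 6.31 and 6.37 in subcutaneous tumors 1, 2 and 3. The mean of the adipocyte markers was higher in all intrakidney tumors (7.19 to 7.36, against 6.18 to 6.43 in subcutaneous tumors). The 6 of 6 were higher by unequal amounts, from 0.03 (Lep) to 3.41 (Car3) on the log2 scale. Groups did not overlap for 4 of the 6, and 2 were past the threshold used below. Mesothelial markers were higher too in 6 of 6 (6.69 to 6.96 in intrakidney and 6.43 to 6.61 in subcutaneous tumors), with 0 past it, and T cell markers were lower in 8 of 8 (6.74 to 7.03 in intrakidney and 7.15 to 7.36 in subcutaneous tumors), with 0 past it. The part of these cell types in the results was not tested.

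The study set tumors of the same cells at both sites side by side. The largest mean differences among the 10 genes were in the cadherins, which lay in opposite directions. Cdh1 was 1.43-fold lower and Cdh2 1.33-fold higher on average in intrakidney tumors. The groups did not overlap for either gene, but those of Cdh2 nearly touched. The repressor genes of the SNAIL, TWIST and ZEB families differed by at most 0.18 on the log2 scale, and Vim by less than 0.01. No member of the set of 10 reached an adjusted p of 0.05 with limma, in which differences are intrakidney minus subcutaneous and p-values were adjusted over all 19938 genes. Across all genes 0.13% passed as higher and 0.1% as lower. At an unadjusted p of 0.05, 1 of the 10 was higher (Cdh2) and 1 was lower (Cdh1), where 4.72% of all genes were higher and 3.71% were lower. Groups did not overlap for 3 of the 10 genes, with Cdh2 higher and Cdh1 and Zeb1 lower, and the same state was found as higher in 8.41% and as lower in 6.53% of all genes. The counts for the 10 rest on so few genes that they are read only as values of these genes.

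**Figure D1:**
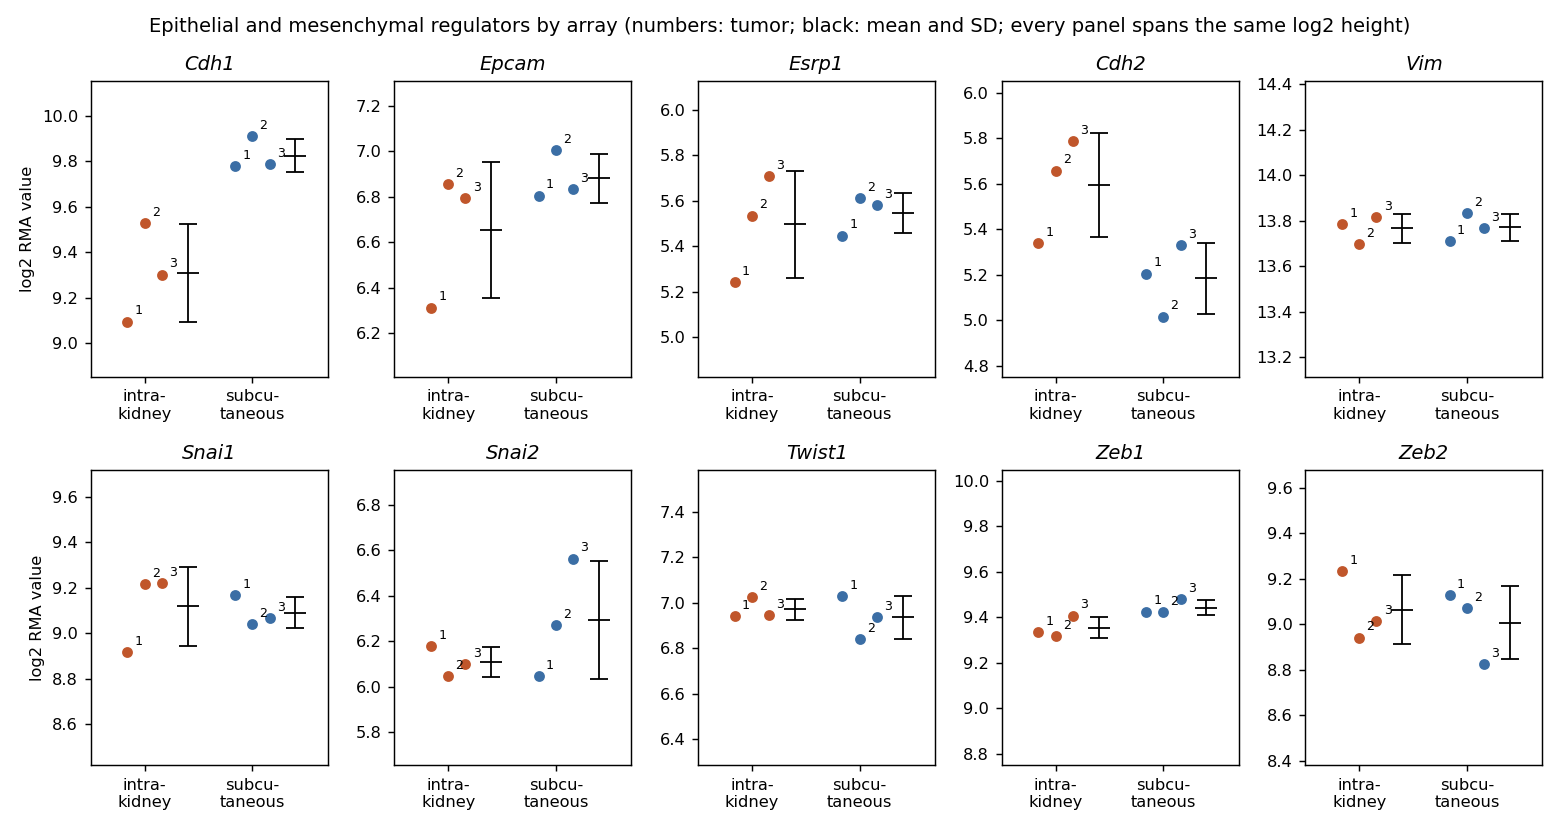
Each panel plots the log2 RMA value of 1 gene by array, with the 3 intrakidney tumors on the left and the 3 subcutaneous tumors on the right, numbered by tumor, and the mean and SD of each group in black beside the points. All panels span the same log2 height, so the mean differences of Cdh1 and Cdh2 can be set against those of Vim, Snai1, Twist1 and Zeb1. The Cdh2 groups nearly touched, at 5.34 in intrakidney tumor 1 and 5.33 in subcutaneous tumor 3.

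Among the epithelial surface genes, Cdh1 (transcript cluster 10575052) had log2 values of 9.09, 9.53 and 9.30 in intrakidney tumors 1, 2 and 3, against 9.78, 9.91 and 9.79 in subcutaneous tumors 1, 2 and 3. Every intrakidney tumor was below every subcutaneous tumor, and the intrakidney values were the more spread (SD 0.217, against 0.074 in subcutaneous tumors, n = 3 each). The difference was -0.52 ± 0.11 on the log2 scale (SE of the limma fit, 95% interval -0.78 to -0.25). Its unadjusted p was 0.00234 and its adjusted p 0.209, so it did not pass over all genes. A difference of at least this size was found in 1.3% of all genes. An exact two-sided permutation test of the group means gave p = 0.1, the smallest value that 3 against 3 allows. In whole tumors, fewer cells of a type and less RNA per cell cannot be told apart.

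Cdh1 stayed lower whichever tumor was left out, with differences of -0.63 to -0.41. The unadjusted p-values of these limma fits were at most 0.0114. The adjusted p-values ran from 0.118 to 0.770, so Cdh1 did not pass in any of them. With intrakidney tumor 1, the lowest for Cdh1, as the only intrakidney array, the difference was -0.73. That fit measures no spread among intrakidney tumors and assumes that they vary like the subcutaneous tumors. E-cadherin is also made by host distal tubule and collecting duct, whose 13 marker genes averaged 5.93, 6.37 and 6.62 in intrakidney tumors 1, 2 and 3, against 6.001, 6.10 and 6.25 in the subcutaneous tumors. In intrakidney tumors 8 of these markers had higher and 5 had lower means. They ran from dim to moderate, with 10.2% (Calb1) to 52.2% (Aqp2) of all genes below their means. Among the intrakidney tumors, tumor 1 had the lowest marker mean and the lowest Cdh1 value, while tumor 3 had the highest marker mean and less Cdh1 than tumor 2. Keratinocytes of the skin make E-cadherin too, and the mean of 8 keratinocyte markers lay between 5.80 and 6.03 in intrakidney and between 5.86 and 6.09 in subcutaneous tumors. The part of these cell types in the Cdh1 difference was not tested.

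Epcam (transcript cluster 10447383), which encodes an adhesion molecule of simple epithelia, had values of 6.31, 6.86 and 6.79 in intrakidney tumors, against 6.80, 7.004 and 6.83 in subcutaneous tumors. The groups overlapped, and tumor 1 of the intrakidney group was lowest. The difference was -0.23 ± 0.15 (adjusted p = 0.760), with a 95% interval of -0.57 to 0.12. It shrank to -0.06 without intrakidney tumor 1. With that tumor, the lowest, as the only intrakidney array it was -0.57, in a fit that measures no spread among intrakidney tumors.

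The Epcam promoter is shown because it carries the E-box that SNAIL and ZEB proteins recognise. RefSeq promoters of build GRCm38.p6 matched 5 of the 10 genes by symbol. The motif searched was CAGGTG on both strands, which on the printed strand reads CAGGTG or CACCTG. The 250 bases before the gene start of Epcam (chr17:87635729-87635978, plus strand) hold it 187 and 19 bases before the start, in capitals here. The same length before the gene start of Snai1 (chr2:167537945-167538194, plus strand) holds it 126 bases before the start. The matched windows of Vim, Twist1 and Zeb2 do not contain these letters, and 17.2% of the 32851 promoter windows of this length do. A match is a description of the sequence and not a measurement of binding.
Epcam promoter: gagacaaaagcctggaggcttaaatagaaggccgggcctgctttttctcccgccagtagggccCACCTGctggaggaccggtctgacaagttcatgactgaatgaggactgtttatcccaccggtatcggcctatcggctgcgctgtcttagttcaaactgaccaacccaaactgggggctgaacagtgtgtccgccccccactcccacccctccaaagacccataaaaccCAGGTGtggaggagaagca
Snai1 promoter: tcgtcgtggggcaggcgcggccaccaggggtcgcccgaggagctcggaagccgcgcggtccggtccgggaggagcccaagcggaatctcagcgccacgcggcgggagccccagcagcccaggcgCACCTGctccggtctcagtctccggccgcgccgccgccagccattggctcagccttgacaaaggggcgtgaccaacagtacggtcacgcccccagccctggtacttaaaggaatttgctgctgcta

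Esrp1 (transcript cluster 10511560) encodes a splicing regulator that keeps the epithelial isoforms of its target transcripts. Its values were 5.24, 5.54 and 5.71 in intrakidney tumors, against 5.45, 5.61 and 5.58 in subcutaneous tumors. The subcutaneous values lay inside the intrakidney range. Esrp1 was a dim gene on this array, with 17.3% of genes below its mean. The difference was -0.05 ± 0.12 (adjusted p = 0.960), and it changed sign to 0.08 without intrakidney tumor 1. Its paralog Esrp2, which acts on many of the same transcripts, measured 7.57, 7.48 and 7.50 in intrakidney tumors, against 7.74, 7.79 and 7.64 in subcutaneous tumors. Esrp2 was lower in all 3 intrakidney tumors, by 0.21 ± 0.07 on the log2 scale, and missed the threshold (adjusted p = 0.468).

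Cdh2 (transcript cluster 10457644), the mesenchymal cadherin, had log2 values of 5.34, 5.66 and 5.79 in intrakidney tumors 1, 2 and 3, against 5.21, 5.02 and 5.33 in subcutaneous tumors 1, 2 and 3. The groups did not overlap, but intrakidney tumor 1 and subcutaneous tumor 3 were separated by less than 0.01. The difference was 0.41 ± 0.13 (95% interval 0.10 to 0.72, unadjusted p = 0.0161, adjusted p = 0.432), and 2.1% of all genes differed by at least as much. Cdh2 was a dim gene on this array, with 15.6% of genes below its mean, a range where RMA compresses differences.

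N-cadherin is a cadherin of proximal tubule cells too. Of the 21 proximal tubule markers 20 had higher means in intrakidney tumors. Their mean over the list, given above, was higher in tumors 2 and 3 than in the subcutaneous tumors and lay within the subcutaneous range in tumor 1, though single markers differed from this. Cyp2e1 measured 8.36, 7.41 and 10.02 in intrakidney tumors, against 6.04, 5.87 and 6.24 in subcutaneous tumors. Aqp1 measured 8.60, 7.87 and 7.94 in intrakidney tumors, against 9.16, 9.07 and 9.29 in subcutaneous tumors. Both were named after their values were seen. The part of tubule cells in the Cdh2 difference was not tested. With intrakidney tumor 1, the lowest of its group for Cdh2, as the only intrakidney array, the difference was 0.16. Leaving out intrakidney tumor 3 alone gave 0.31 (unadjusted p = 0.0556), and leaving out subcutaneous tumor 2 gave 0.33 (unadjusted p = 0.0615).

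**Figure D2:**
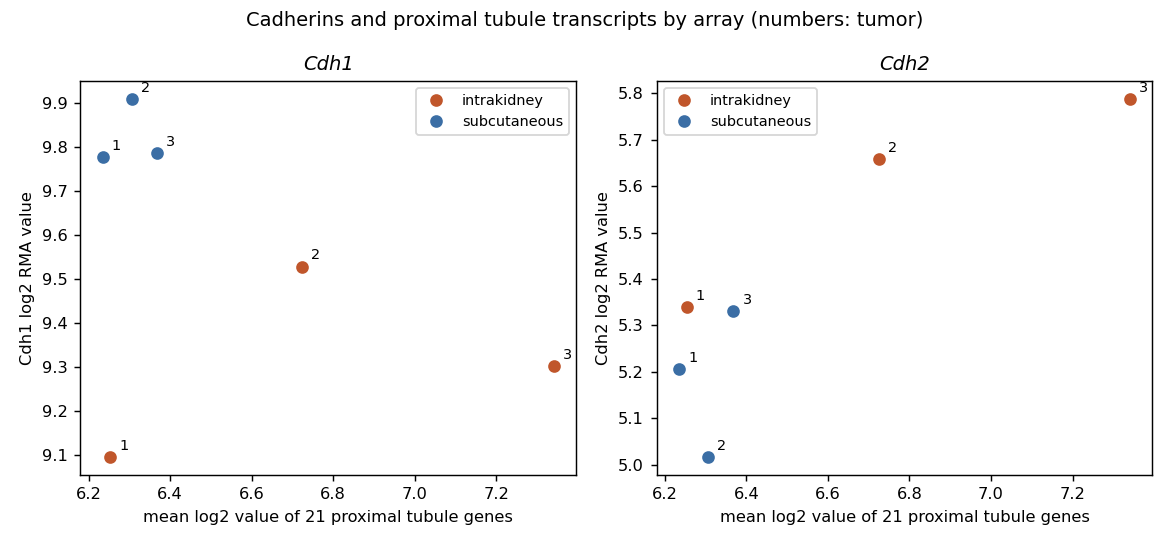
The log2 value of Cdh1 (left) and Cdh2 (right) is plotted against the mean log2 value of 21 proximal tubule genes on each array, with intrakidney tumors in orange and subcutaneous tumors in blue, numbered by tumor. Intrakidney tumor 1, with a tubule mean of 6.25 beside the subcutaneous tumors, had the lowest Cdh1 value (9.09) and a Cdh2 value (5.34) next to the subcutaneous tumors.

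Vim (transcript cluster 10469322), which encodes the intermediate filament protein of mesenchymal cells, measured 13.79, 13.70 and 13.82 in intrakidney tumors, against 13.71, 13.83 and 13.77 in subcutaneous tumors. The groups overlapped fully, and the 6 values spanned 0.14. The difference was -0.0046 ± 0.07, with a 95% interval of -0.17 to 0.16 (adjusted p = 0.996). Fibroblasts and leukocytes also make vimentin. The 9 fibroblast markers averaged 8.81, 8.58 and 9.35 in intrakidney tumors and 9.54, 9.46 and 9.40 in subcutaneous tumors. Of the 9, 7 were lower in intrakidney tumors, and 1 of these passed the threshold, Postn (difference -1.66 ± 0.22, adjusted p = 0.046). The part of fibroblasts in the Vim values was not tested.

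None of the repressor genes passed the threshold, and Zeb1 was the only one of the 5 whose groups did not overlap. Snai1 (transcript cluster 10478884), which encodes the SNAIL repressor of Cdh1, had values of 8.92, 9.22 and 9.22 in intrakidney tumors, against 9.17, 9.04 and 9.06 in subcutaneous tumors. The groups overlapped, since intrakidney tumor 1 was lowest of all and tumors 2 and 3 were highest. The difference was 0.03 ± 0.10 (95% interval -0.21 to 0.26, adjusted p = 0.977). It became -0.02 without intrakidney tumor 2 or without intrakidney tumor 3, and -0.17 without both.

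Snai2 (transcript cluster 10433776), which encodes the related repressor SLUG, measured 6.18, 6.05 and 6.10 in intrakidney tumors, against 6.05, 6.27 and 6.56 in subcutaneous tumors. Here the subcutaneous tumors were the more spread, and tumor 3 of that group was highest. The difference was -0.18 ± 0.13 (95% interval -0.48 to 0.12, adjusted p = 0.789). It was -0.05 without subcutaneous tumor 3 and -0.31 without subcutaneous tumor 1. Twist1 (transcript cluster 10395320), a basic helix-loop-helix factor of mesoderm and neural crest, measured 6.94, 7.02 and 6.95 in intrakidney tumors, against 7.03, 6.84 and 6.94 in subcutaneous tumors. These values interleaved, and the difference was 0.04 ± 0.08 (95% interval -0.14 to 0.21, adjusted p = 0.955).

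Zeb1 (transcript cluster 10453678), a zinc finger and homeobox repressor of Cdh1, had values of 9.34, 9.32 and 9.41 in intrakidney tumors, against 9.42, 9.42 and 9.48 in subcutaneous tumors. All intrakidney values were below all subcutaneous values, but the gap was small, and intrakidney tumor 3 came within 0.02 of subcutaneous tumors 1 and 2. The difference was -0.09 ± 0.07 (95% interval -0.24 to 0.07, unadjusted p = 0.227, adjusted p = 0.812). The interval includes 0, so a lower level of Zeb1 in intrakidney tumors was not established. Differences of at least the size of that of Zeb1 were found in 44.7% of all genes.

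Zeb2 (transcript cluster 10482448), the paralog of Zeb1, is made by macrophages and other leukocytes as well as by mesenchymal cells. Its values were 9.23, 8.94 and 9.02 in intrakidney tumors, against 9.13, 9.07 and 8.82 in subcutaneous tumors, and the groups overlapped. The difference was 0.06 ± 0.11 (95% interval -0.21 to 0.32, adjusted p = 0.953), and its sign turned without intrakidney tumor 1 (-0.03) or without subcutaneous tumor 3 (-0.04). The mean of 9 macrophage markers was 10.85, 10.69 and 10.58 in intrakidney tumors, against 10.67, 10.62 and 10.58 in subcutaneous tumors, with 6 of 9 markers higher in intrakidney tumors. Intrakidney tumor 1 had the highest value of both Zeb2 and this marker mean. Subcutaneous tumor 3 had the lowest Zeb2 value, but its marker mean (10.583) nearly equalled that of intrakidney tumor 3 (10.585). The Zeb2 value of intrakidney tumor 3 was 9.02. The part of macrophages in the Zeb2 values was not tested.

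**Figure D3:**
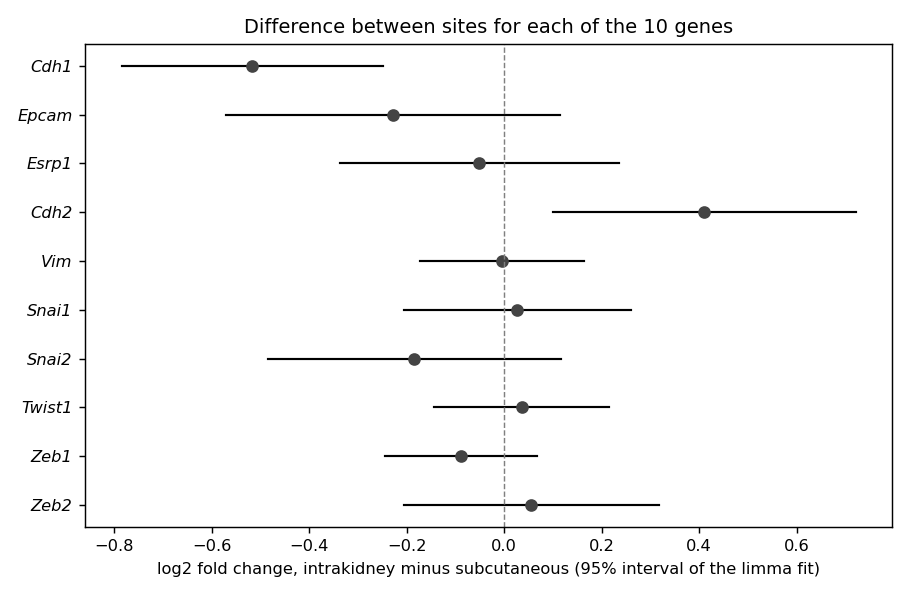
Points give the log2 fold change of each gene, intrakidney minus subcutaneous, and lines its 95% interval in the limma fit. The intervals of Cdh1 (-0.78 to -0.25) and Cdh2 (0.10 to 0.72) leave out 0 before adjustment, and the other 8 include it.

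Intrakidney tumor 1 gave the lowest value of the 6 arrays for 4 of the 10 genes, Cdh1, Epcam, Esrp1 and Snai1, and the highest for Zeb2. This array was also the lowest for 27.5% of all genes, more than any other array. The intrakidney SD was larger than the subcutaneous SD for 7 of the 10 genes, against 59.4% of all genes.

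The microRNAs that repress the ZEB and SNAIL genes are set out here by seed, bases 2 to 8, which are in capitals, because the seed decides which transcripts a microRNA can pair with. The array rows read transcripts of the hairpin genes and not the mature microRNAs. RefSeq sequences of build GRCm38.p6 matched all 8 listed genes, and 7 of the 8 had an array row of their own, Mir429 being the exception. The miR-200 family carries the seed AAUACUG or AACACUG, which differ by 1 base, and miR-205-5p, which also represses ZEB genes, has another seed.
mmu-miR-200b-3p: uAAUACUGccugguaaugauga
mmu-miR-200c-3p: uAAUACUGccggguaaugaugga
mmu-miR-429-3p: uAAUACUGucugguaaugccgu
mmu-miR-200a-3p: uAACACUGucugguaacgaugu
mmu-miR-141-3p: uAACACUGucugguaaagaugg
mmu-miR-205-5p: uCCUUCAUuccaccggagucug

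No hairpin gene passed, and none reached an unadjusted p of 0.05 in either direction. Most were dim, with only 1 of the 7 above the 40th percentile of mean values, and RMA compresses differences in that range. Mir200c, in the AAUACUG group, had values of 5.40, 5.94 and 5.84 in intrakidney tumors, against 5.88, 5.69 and 6.09 in subcutaneous tumors, a difference of -0.16 ± 0.16 (adjusted p = 0.876). Mir200a, in the AACACUG group, measured 6.57, 6.94 and 6.98 in intrakidney tumors, against 6.94, 6.85 and 6.97 in subcutaneous tumors, a difference of -0.09 ± 0.12 (adjusted p = 0.919). Both were lowest in intrakidney tumor 1, and without that tumor the differences were 0.0034 for Mir200c and 0.04 for Mir200a. Mir205 differed by 0.22 ± 0.13 (adjusted p = 0.738) and Mir30a, whose mature product represses Snai1, by -0.09 ± 0.08 (adjusted p = 0.856). Leaving out intrakidney tumor 2 gave 0.0964 for Mir205 and leaving out intrakidney tumor 1 gave 0.34, and Mir30a was -0.0187 without intrakidney tumor 3. The median over the 7 genes was -0.05, beside -0.0058 over all genes.

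Other genes of the programme were read from 11 lists, which together named 162 measured genes beside the 10. Of these, 1 passed over all genes, Id1. Of 33 measured junction and epithelial identity genes of 34 listed, 16 were higher and 17 lower in intrakidney tumors, with 0 past the threshold. The median was -0.0007, and 4 were higher and 1 lower at an unadjusted p of 0.05. The 4 nearest to the threshold were all higher in intrakidney tumors, the opposite direction to Cdh1.

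Cgn, which encodes the tight junction protein cingulin, measured 7.92, 7.89 and 7.79 in intrakidney tumors, against 7.50, 7.44 and 7.36 in subcutaneous tumors. Its difference was 0.43 ± 0.07 (adjusted p = 0.102). Muc1, the apical mucin gene, measured 9.43, 9.47 and 9.61 in intrakidney tumors, against 9.02, 8.99 and 9.13 in subcutaneous tumors, a difference of 0.46 ± 0.08 (adjusted p = 0.110). Neither gene overlapped between the groups, and the spread within each group was small beside the gap. The tight junction genes Cldn1 and Cldn4 differed by 0.41 ± 0.09 and 0.26 ± 0.09 (adjusted p = 0.199 and 0.453). Cgn and Muc1 passed when dim genes were left out before adjustment (adjusted p = 0.0363 and 0.0411), where 0.844% of the genes tested passed. Counting that setting, Cgn passed in 2 and Muc1 in 3 of 16 other settings. Neither passed with any 1 tumor left out (adjusted p = 0.168 to 0.496 for Cgn and 0.139 to 0.575 for Muc1).

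Of the 12 epithelial transcription and splicing factor genes, all measured, 9 were higher and 3 lower, with a median of 0.04 and 0 past the threshold. At an unadjusted p of 0.05, 1 was higher and 1 lower. Elf3, an ETS factor of epithelia, measured 7.76, 7.81 and 7.84 in intrakidney tumors, against 7.39, 7.45 and 7.39 in subcutaneous tumors. The groups were well apart, by 0.39 ± 0.07, yet the adjusted p was 0.0967, and it was 0.0306 when dim genes were left out. Elf3 passed in 2 of 16 other settings, and not with any 1 tumor left out (adjusted p = 0.139 to 0.432). The pioneer factor gene Foxa1 differed by -0.24 ± 0.16 and Grhl1, a grainyhead factor gene of epithelia, by 0.10 ± 0.07 (adjusted p = 0.771 and 0.789). Without intrakidney tumor 1 the Foxa1 difference was -0.06.

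Of 22 measured mesenchymal marker genes of 24 listed, 5 were higher and 17 lower in intrakidney tumors, with a median of -0.15 and 0 past the threshold. At an unadjusted p of 0.05, 3 were higher and 7 lower. The matrix metalloproteinase gene Mmp2 differed by -0.74 ± 0.12 (adjusted p = 0.0947) and Cdh11, the cadherin of fibroblasts and osteoblasts, by -0.51 ± 0.09 (adjusted p = 0.103). The fibronectin gene Fn1 lay the other way, at 11.21, 11.12 and 11.60 in intrakidney tumors, against 10.46, 10.49 and 10.04 in subcutaneous tumors. Its difference was 0.98 ± 0.16 (adjusted p = 0.0953), and Acta2, the smooth muscle actin gene, differed by 0.37 ± 0.07 (adjusted p = 0.140). This list shares 8 genes with the fibroblast markers, whose means are given above with Vim, and the part of fibroblasts in it was not tested. The number past the threshold was 6 with array weights, 4 (of 20 measured) without dim genes, 4 without intrakidney tumor 3, and 3 where the prior was robust and followed intensity. In the same order, 3.13%, 0.844%, 0.166% and 0.692% of all genes tested passed, against 0.231% in the fit as described. None of the list passed with any other 1 tumor left out. The same held after quantile normalization or median centring, and with the replicate number as a block.

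**Figure D4:**
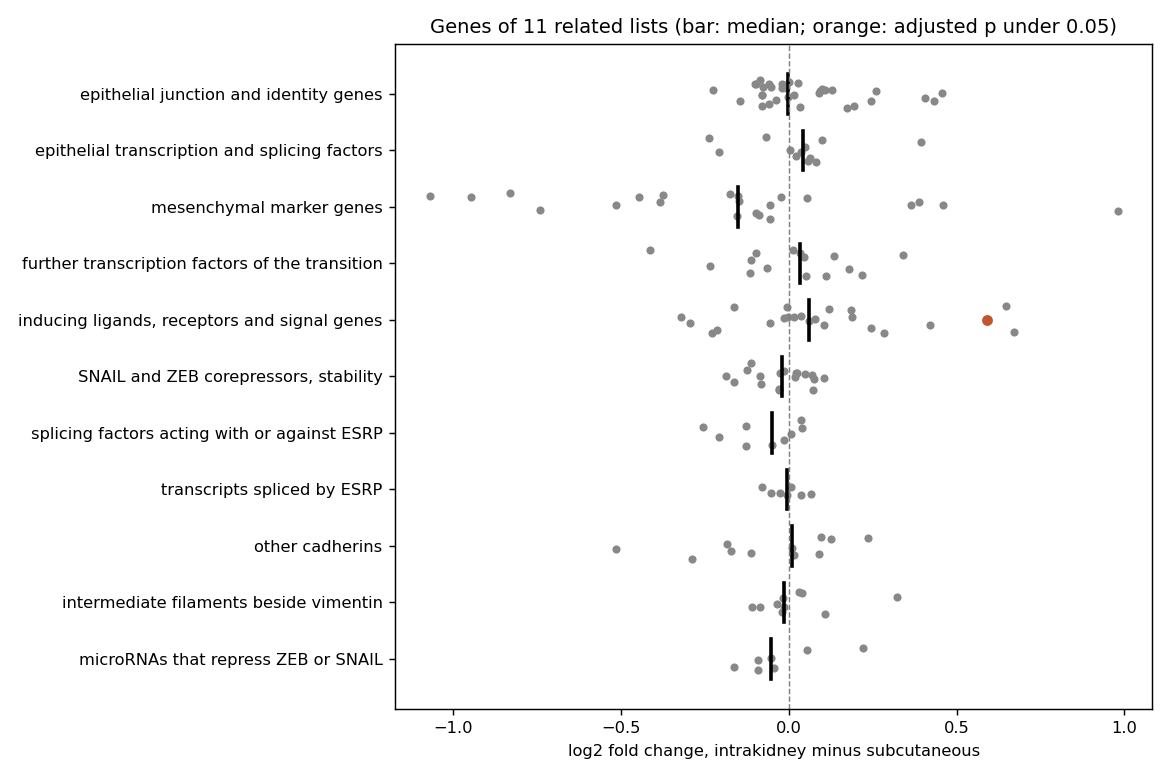
Each point is the log2 fold change, intrakidney minus subcutaneous, of 1 gene in 1 of the 11 related lists, with the median of each list as a black bar and the gene past an adjusted p of 0.05, Id1, in orange. The mesenchymal markers have the lowest median (-0.15) and spread from -1.07 to 0.98, while the transcripts spliced by ESRP proteins stay between -0.08 and 0.07.

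Among further transcription factor genes of the transition, 15 of 17 were measured, 9 higher and 6 lower, with a median of 0.03 and 0 past the threshold. At an unadjusted p of 0.05, 2 were higher and 1 lower. Prrx1, a homeobox factor gene of mesenchyme, measured 7.34, 7.26 and 7.43 in intrakidney tumors, against 7.83, 7.79 and 7.64 in subcutaneous tumors, a difference of -0.41 ± 0.08 (adjusted p = 0.161). Twist2, the paralog of Twist1, differed by 0.22 ± 0.08 and the forkhead gene Foxc2 by 0.34 ± 0.14 (adjusted p = 0.514 and 0.578), the second being 0.22 without intrakidney tumor 2. The forkhead gene Foxq1 differed by -0.23 ± 0.11 (adjusted p = 0.633).

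Of 23 inducing ligand, receptor and signal genes, all measured, 14 were higher and 9 lower, with a median of 0.06. Of these 1 rose past the threshold and 0 fell, and 5 were higher and 1 lower at an unadjusted p of 0.05. Id1, a helix-loop-helix inhibitor induced by BMP signals, measured 9.08, 9.15 and 9.24 in intrakidney tumors, against 8.55, 8.52 and 8.63 in subcutaneous tumors. It rose by 0.59 ± 0.08 on the log2 scale, 1.5-fold (adjusted p = 0.0403). The call was lost when any 1 tumor was left out (adjusted p = 0.0636 to 0.262), after quantile normalization (0.0623), when every array row was tested (0.159), without intrakidney tumors 2 and 3 together (0.199) and with the replicate number as a block (0.116). Endothelial cells also make Id1. The mean of 8 endothelial markers was 8.32, 8.26 and 8.25 in intrakidney tumors, against 8.15, 7.99 and 8.10 in subcutaneous tumors. Of the 8, 5 were higher in intrakidney tumors, and 1 of these passed the threshold, Emcn (difference 0.72 ± 0.10, adjusted p = 0.046). The part of endothelial cells in the Id1 difference was not tested.

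The related inhibitor gene Id3 differed by 0.42 ± 0.10 (adjusted p = 0.260). Lif and Il6, which encode cytokines of the interleukin 6 family, differed by 0.65 ± 0.13 and 0.67 ± 0.21 (adjusted p = 0.148 and 0.416), and Il6 by 0.44 without intrakidney tumor 1. Il6 was dim, with 7.79% of genes below its mean. The TGF-beta ligand genes, named after their values were seen because these ligands are the best known inducers of the transition, showed little difference. Tgfb1 differed by -0.0031, Tgfb2 by -0.0044 and Tgfb3 by 0.08 (adjusted p = 0.997, 0.997 and 0.940).

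**Figure D5:**
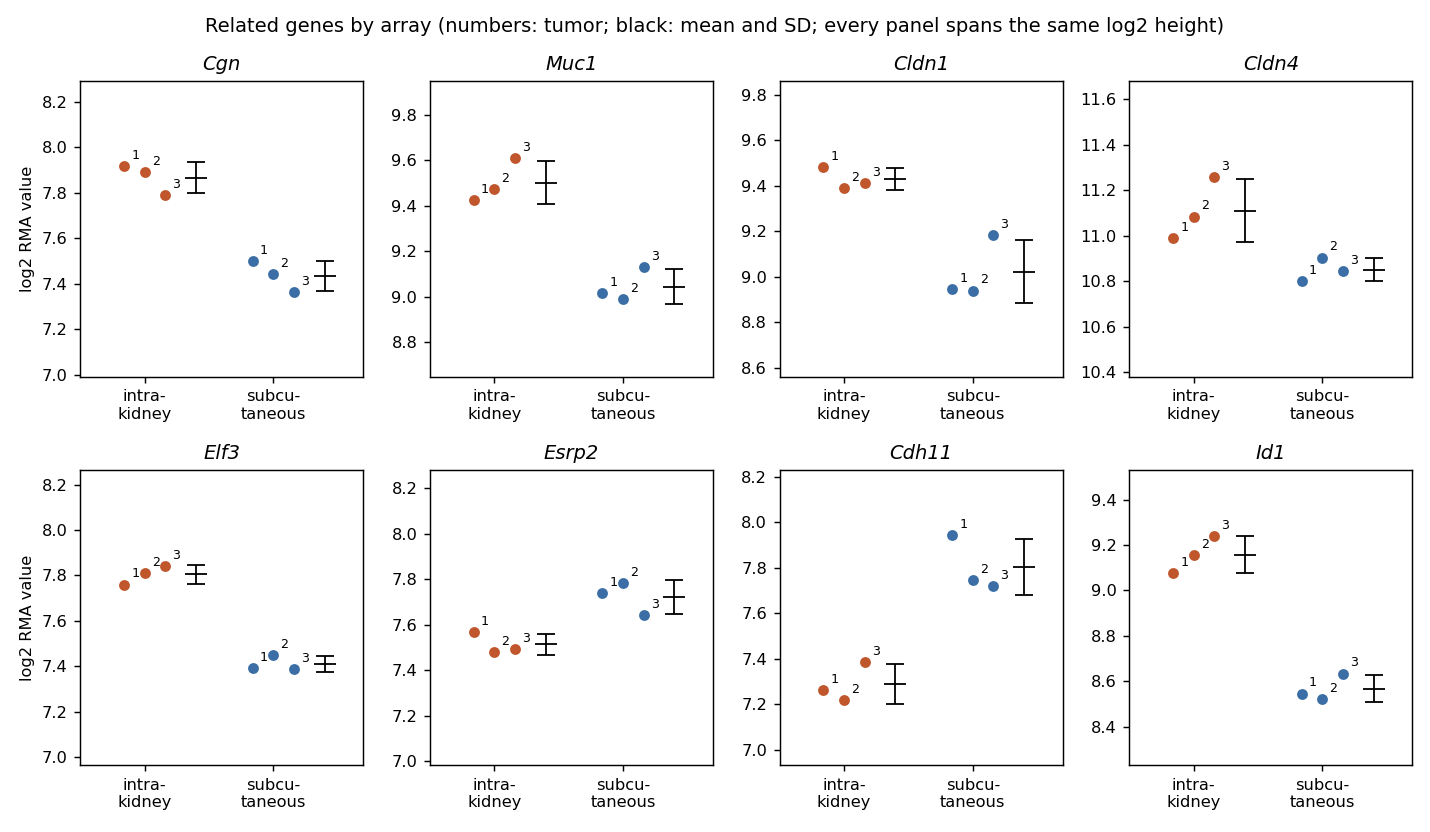
Log2 RMA values of 8 related genes are plotted by array, with the 3 intrakidney tumors on the left and the 3 subcutaneous tumors on the right, numbered by tumor, and the mean and SD of each group in black beside the points. Cgn, Muc1, Cldn1, Cldn4, Elf3 and Id1 lie higher and Esrp2 and Cdh11 lower in all 3 intrakidney tumors, and of these Id1 alone passed the threshold. The 8 were picked from the genes of lowest unadjusted p in their lists, which favours groups that are apart. Over all genes, groups did not overlap as higher in 8.41% and as lower in 6.53%.

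Corepressors and stability regulators of the SNAIL and ZEB proteins, among them histone deacetylases and the kinase that marks SNAIL for destruction, showed small differences. Of 18 measured genes of 20 listed, 8 were higher and 10 lower, from -0.19 for the kinase gene Gsk3b to 0.10 for the arginine methyltransferase gene Prmt5. None passed, and none reached an unadjusted p of 0.05 in either direction. The 9 splicing factor genes that act with or against ESRP proteins had a median of -0.05, with 3 higher, 6 lower and 0 past the threshold. At an unadjusted p of 0.05, 2 of them were lower, Esrp2 and the RNA-binding protein gene Qk, which differed by -0.25 ± 0.11 (adjusted p = 0.583). Of 7 transcripts spliced by ESRP proteins, 3 were higher and 4 lower, within -0.08 and 0.07, with 0 past the threshold and 0 at an unadjusted p of 0.05. Such gene-level values do not show which isoform was made.

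Of 11 other cadherin genes, 6 were higher and 5 lower, with a median of 0.0089, 0 past the threshold, and 1 higher and 2 lower at an unadjusted p of 0.05. Beside Cdh11, the endothelial cadherin gene Cdh5 differed by 0.24 ± 0.07 and Cdh13, a cadherin gene without a cytoplasmic domain, by -0.29 ± 0.10 (adjusted p = 0.398 and 0.468). Of 10 intermediate filament genes beside Vim, 4 were higher and 6 lower, with a median of -0.015 and 0 past the threshold. Nes, which encodes nestin, was the 1 gene among them at an unadjusted p of 0.05, with a difference of 0.32 ± 0.08 (adjusted p = 0.278). The simple epithelial keratin gene Krt8 measured 13.22, 13.20 and 13.16 in intrakidney tumors, against 13.18, 13.29 and 13.35 in subcutaneous tumors, a difference of -0.09 ± 0.07 (adjusted p = 0.842).

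The genes whose pattern over the 6 arrays was most like that of Cdh1, by the root mean square difference of values centred on each gene's own mean, were Trim29 (0.06), the basement membrane collagen gene Col4a4 (0.07) and the transglutaminase gene Tgm6 (0.08). Col4a4 measured 8.13, 8.35 and 8.21 in intrakidney tumors, against 8.82, 8.86 and 8.73 in subcutaneous tumors. For Cdh2 they were the G protein subunit gene Gnai1 (0.06), the chemokine gene Cx3cl1 (0.06) and the G protein regulator gene Rgs16 (0.07). Cx3cl1 measured 7.41, 7.75 and 7.70 in intrakidney tumors, against 7.17, 7.08 and 7.39 in subcutaneous tumors. With 6 arrays and 19938 genes, close matches of this kind are a description only.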

How the data were processed

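Whole-tumor RNA of 3 intrakidney and 3 subcutaneous Renca tumors was measured on 1-colour whole-transcript arrays. The deposited log2 values come from the authors' RMA step. The submitters' processing notes name RMA and affy. Versions, probe set definition and genome build are not given in the sources used here. The log2 scale was read from the values, and it is unknown whether the 6 arrays were normalized in 1 run. RMA compresses differences of dim genes.

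Of 35512 rows, 21789 were paired with 1 gene, 1621 with several and 12102 were not named here. Rows with 1 gene were kept, and for 999 genes with several such rows the row with the highest mean over the 6 arrays, leaving 19938 genes. Differences were fitted in R 4.3.3 by limma 3.58.1 (lmFit, then eBayes, two-sided), with Benjamini-Hochberg adjustment over all genes and a threshold of 0.05. Errors are SE of this fit unless marked SD. The tumors came from separate mice, the labels name no batch, and the number of arrays limits precision.

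The 10 genes and all lists were chosen with earlier results of these data known. Named are the 10 genes, up to 4 genes of each list by unadjusted p, and the 3 genes most like each of the 2 of the 10 with the lowest p. Others were named after their values were seen. Other settings are given in the closing section.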

Additional observations from a re-analysis of the deposited data

How the results depend on the processing

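None of the 10 genes passed in the fit as described, and 0 passed in 16 of 17 other settings. The exception was array weights, where Cdh1 (-0.55, adjusted p = 0.0174) and Cdh2 (0.64, adjusted p = 0.0241) made 2, while 624 of all genes (3.13%) passed. The weights rested mostly on intrakidney tumor 3 (2.57, against 0.351 and 0.679 for tumors 1 and 2) and subcutaneous tumor 2 (3.55, against 0.756 and 0.609 for tumors 1 and 3). Over all genes 46 passed as described, against 101 without genes under the 40th percentile (fewer genes tested), 74 with an offset of 16, 138 with an intensity trend and robust prior, 5 at an adjusted p of 0.01, 30 without intrakidney tumors 2 and 3, and 0 with every row tested (2206 rows at an unadjusted p of 0.05). Leaving out 1 tumor at a time gave 2 to 33. Apart from the stricter threshold and the smaller sets, the cause was not tested. The replicate number as a block gave 0 genes (1825 at an unadjusted p of 0.05), with 0 of the 10. Deviations of same-numbered tumors from their group means correlated across genes at 0.37, -0.16 and 0.10. Intrakidney tumor 2 and subcutaneous tumor 3 correlated at 0.43. Each group mean holds only 3 tumors, which ties these correlations to each other, so they cannot decide whether the numbers mark a pairing.

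Cdh1 kept its sign in 16 of 16 settings and Cdh2 in 15 of 15. Cdh2, Epcam, Snai2 and Esrp1 were under the 40th percentile and were not tested in that setting. Signs turned for 10 of the named genes. Without 1 tumor at a time, Esrp1 ran from -0.158 to 0.0755, Zeb2 from -0.0355 to 0.117, Vim from -0.0343 to 0.0305, Snai1 from -0.0232 to 0.127, Twist1 from -0.0116 to 0.0829, Scrib from -0.025 to 0.0756, Gfap from -0.18 to 0.0002, Mir200a from -0.165 to 0.0403 and Mir200c from -0.27 to 0.0034. With array weights Zeb2 was -0.0265, Esrp1 0.0488, Scrib -0.0385, Mir200a 0.053 and Mir200c 0.0471. Without intrakidney tumors 2 and 3 Vim was 0.0161, Snai1 -0.17, Scrib -0.019 and Mir205 -0.0197. With median centring Vim was 0.0063. The cause of these turns was not tested. The 48 other named genes kept their sign in 747 of 757 results.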
